A study of Gallus gallus with 6 samples.

Results

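The heat shock chaperones described here are 10 genes of chicken primary myoblasts, muscle precursor cells from leg muscle, taken from the deposited table by gene symbol: HSP90AA1, HSP90AB1, HSPA8, HSPA2, HSPH1, DNAJA1, HSPD1, HSPE1, HSPB1 and HSPB9. They are 10 of the 24433 genes in the table and of the 11685 that were tested, those with a mean of at least 1 FPKM (fragments scaled to gene length and library size). RNA sequencing of polyadenylated RNA was done on 3 libraries of cells overexpressing ANKRD9, an ankyrin repeat protein, and on 3 libraries of cells with pcDNA3.1, the empty expression vector. The labels give no dose, time after transfection, bird or culture, and nothing says that replicate libraries were grown separately, so each p-value reflects no more than the scatter of these 6 libraries, which may be technical. The study asked how ANKRD9 acts on the metabolism of inosine monophosphate in these cells, and heat shock proteins were not named among its questions in the sources used here.

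Chaperones help other proteins fold and keep unfolded ones from clumping. The HSP70 proteins bind short unfolded stretches in a cycle driven by ATP, J-domain proteins such as DNAJA1 deliver substrates to them, and HSP110 proteins such as HSPH1 release their ADP. HSP90 finishes the folding of kinases, steroid receptors and, in muscle, myosin motors, HSPD1 and HSPE1 form the folding chamber of mitochondria, and small heat shock proteins hold unfolded proteins without using ATP. Heat shock factors switch on many of these genes when unfolded proteins build up.

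ANKRD9 itself averaged 98.7 ± 7.26 FPKM in the ANKRD9 libraries and 9.24 ± 0.984 FPKM in the pcDNA3.1 libraries (SD, n = 3 each). The groups did not overlap (exact two-sided permutation, p = 0.1, the minimum for groups of 3). The libraries held between 16158627 and 26310089 reads, and the chaperone genes rested on 458 to 52117 reads per library. All 5 myoblast markers looked up, MYOD1, MYF5, MYOG, PAX7 and DES, were present, summing to between 844 and 942 FPKM in the ANKRD9 libraries and between 823 and 861 FPKM in the pcDNA3.1 libraries. Of these 5 markers, 2 were higher, 2 were lower and MYOG did not pass. MYOD1, a master regulator of muscle, stood at 128, 106 and 114 FPKM with ANKRD9 and at 206, 192 and 199 FPKM with the vector (log2 fold change -0.78; limma, adjusted p = 0.000312), and PAX7 was also lower (-0.27; adjusted p = 0.0154), while MYF5 and DES were higher (0.32 and 0.33; adjusted p = 0.00517 and 0.00909). Fibroblast markers were also abundant. COL1A1, COL1A2, DCN and PDGFRA summed to between 1189 and 1280 FPKM with ANKRD9 and between 1564 and 1597 FPKM with the vector, and 3 of the 4 were lower. DCN, the most abundant of the 4, did not pass (limma, adjusted p = 0.150). It stood at 641, 666 and 697 FPKM with ANKRD9 and at 688, 721 and 752 FPKM with the vector. The 4 leukocyte markers summed to between 14.5 and 17.4 FPKM with ANKRD9 and between 9.31 and 11.2 FPKM with the vector. SPI1 and CD3E were higher, PTPRC did not pass, and CSF1R was below the filter and not tested. The 3 endothelial markers summed to between 5.75 and 6.45 FPKM with ANKRD9 and between 4.44 and 5.02 FPKM with the vector. PECAM1 made up most of these sums and was higher, while CDH5 and KDR were below the filter and not tested. Of the 3 erythroid markers 2 were in the table, with sums of at most 0.352 FPKM in the ANKRD9 libraries and 0.383 FPKM in the pcDNA3.1 libraries. The part of these other cells in the chaperone results was not tested.

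With ANKRD9, the chaperones moved in both directions and by modest amounts. HSP90AA1, HSP90AB1, HSPH1 and HSPD1 fell, HSPB9, DNAJA1 and HSPA2 rose, and HSPA8, HSPE1 and HSPB1 did not pass the test. That is 4 lower and 3 higher of 10 at an adjusted p under 0.05 (limma on log2(FPKM + 1), Benjamini-Hochberg over all genes tested), where 36.0% of all genes tested passed, 19.8% lower and 16.3% higher. The 3 values of each group did not overlap for 9 of the 10 genes, as for 50.6% of all genes tested. None of the 10 (limma) reached a log2 difference of 1. The 5th and 95th percentiles of all genes tested were -0.42 and 0.38. Voom on the recovered reads gave 5 lower and 3 higher of the 10, where 19.5% of all genes tested were lower and 21.1% higher. At an unadjusted p under 0.05 limma also gave 5 lower and 3 higher, a cut whose share of all genes is not given here. The median absolute log2 difference was 0.19 for the chaperones and 0.14 for all genes tested, which were not matched to them for level. With the filter at a mean of 5 FPKM, 19.3% of genes tested were higher and 22.9% lower. The chaperones still gave 3 higher and 4 lower there. In bulk RNA, fewer cells of a type and less RNA per cell cannot be told apart.

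**Figure D1:**
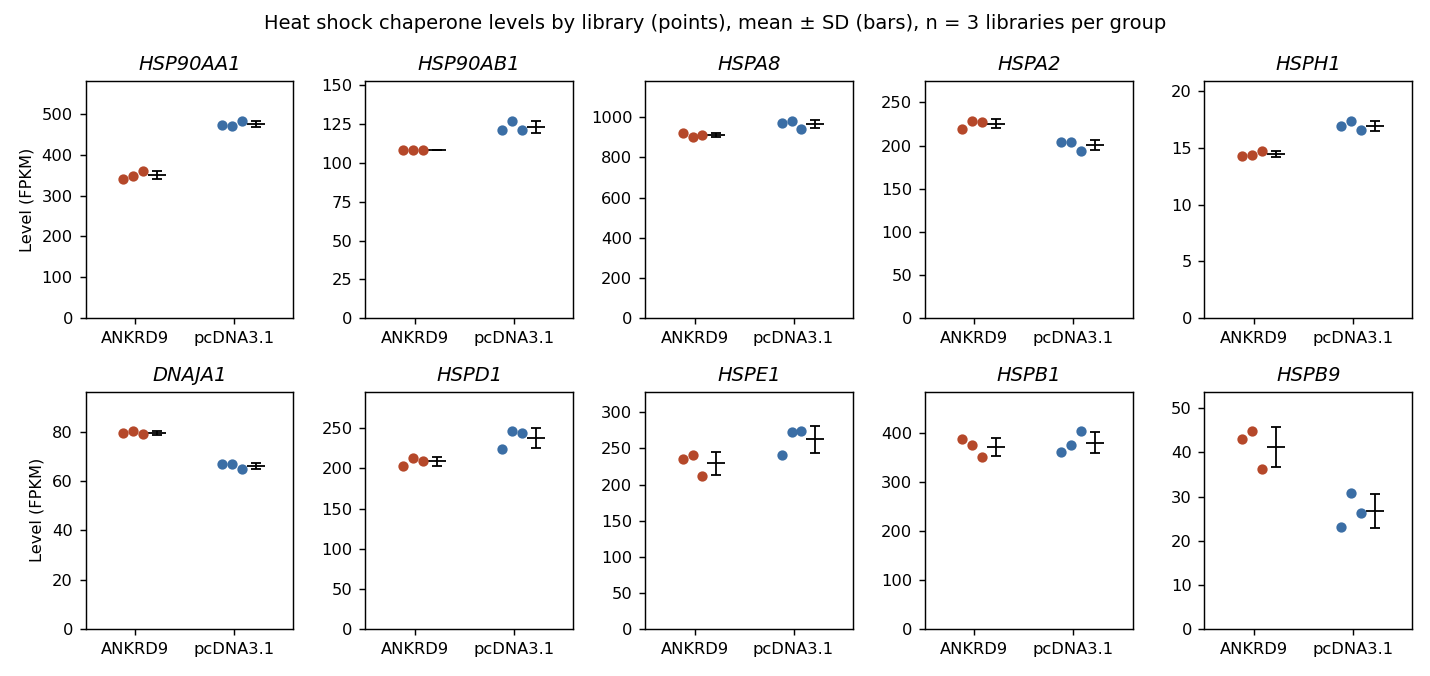
Level in FPKM of each heat shock chaperone in the 3 ANKRD9 libraries (red) and the 3 pcDNA3.1 libraries (blue), with the mean and SD of each group as black bars and each vertical axis starting at 0. The groups stand apart for every gene but HSPB1, and the ANKRD9 values are the higher ones for HSPA2, DNAJA1 and HSPB9.

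As levels, which FPKM makes comparable between genes of different length, the 10 genes ran from 912 FPKM for HSPA8 to 14.5 FPKM for HSPH1 in the ANKRD9 libraries and from 965 to 16.9 FPKM for the same genes in the pcDNA3.1 libraries. HSPA8 ranked 43 by mean level among all genes tested, and HSPH1 ranked 4845. The second place differed between the groups. With ANKRD9 it was held by HSPB1, whose values of 352 to 387 FPKM overlapped those of HSP90AA1, at 341 to 361 FPKM. With the vector it was held by HSP90AA1, at 471 to 484 FPKM, clear of HSPB1 at 362 to 404 FPKM. HSPA2 stood above HSPD1 in every ANKRD9 library and below HSPD1 in every pcDNA3.1 library. HSPE1 overlapped the next gene in the order, which was HSPA2 with ANKRD9 and HSPD1 with the vector. Apart from these and from HSPB1 and HSP90AA1 with ANKRD9, neighbours in the order did not overlap. Summed over the 10 genes, the level was 2553, 2559 and 2511 FPKM in the ANKRD9 libraries and 2701, 2795 and 2771 FPKM in the pcDNA3.1 libraries. HSP90AA1 made up 13.8% ± 0.540 of that sum with ANKRD9 and 17.3% ± 0.347 with the vector (SD, n = 3 each), whereas HSPA8 made up 35.9% ± 0.524 with ANKRD9 and 35.0% ± 0.955 with the vector.

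**Figure D2:**
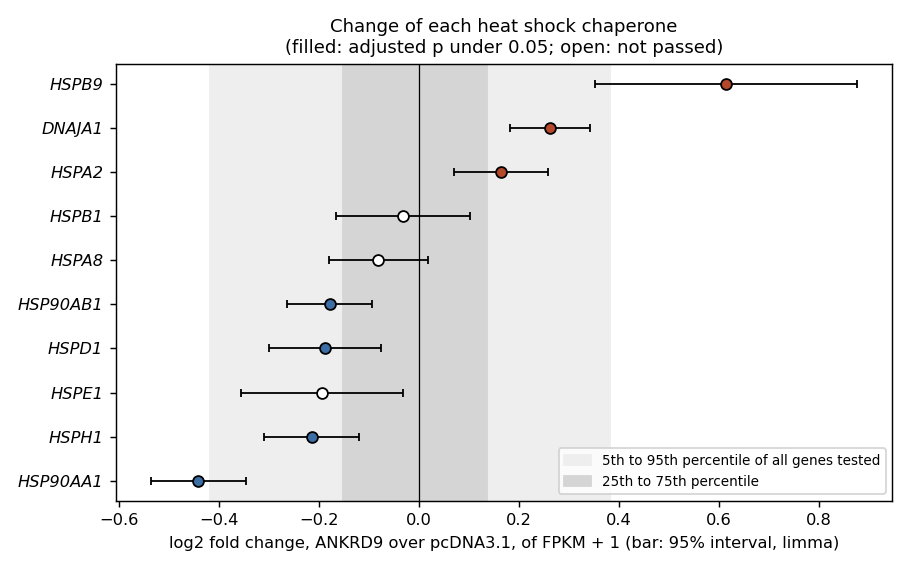
Log2 fold change of each heat shock chaperone, ANKRD9 over pcDNA3.1, on the log2(FPKM + 1) scale, with its 95% interval from limma. Filled points passed the test and open points did not, and the grey bands hold the middle of all genes tested. HSP90AA1 at -0.44 and HSPB9 at 0.61 lie outside the wider band, which runs from -0.42 to 0.38.

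The HSP90 genes both fell. HSP90AA1 encodes the alpha form, the one induced by stress in mammals, which zebrafish muscle needs to fold myosin. It is gene 423463, on chromosome 5: 49679064-49684241, minus strand (GRCg6a). Its level was 341, 347 and 361 FPKM in the ANKRD9 libraries and 472, 471 and 484 FPKM in the pcDNA3.1 libraries. The highest ANKRD9 library was thus far below the lowest pcDNA3.1 library. The difference was 1.36-fold, with a log2 fold change of -0.44 ± 0.04 (SE; 95% interval -0.54 to -0.35; limma, adjusted p = 0.000349), and 91.9% of all genes tested had a smaller absolute change. HSP90AB1, which encodes the constitutive beta form, is gene 396188 on chromosome 3: 30393089-30399047, minus strand. It stood at 108, 109 and 108 FPKM with ANKRD9 and at 121, 127 and 121 FPKM with the vector, so the ANKRD9 libraries were nearly identical and all below the others. It fell 1.13-fold (log2 fold change -0.18 ± 0.04, 95% interval -0.26 to -0.09; limma, adjusted p = 0.00862).

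The balance between the HSP90 forms differed as well. The ratio of HSP90AA1 to HSP90AB1 within a library was 3.15, 3.20 and 3.33 with ANKRD9 and 3.90, 3.71 and 4.00 with the vector. Dividing all genes of a library by a common factor does not alter this ratio, though quantile scaling can. These groups did not overlap (exact two-sided permutation test, p = 0.1, the smallest possible here). The forms are close in sequence, and how reads that match both were counted is not given in the sources used here. HSP90AA1 lies 157.944 kb from ANKRD9 on the same strand of chromosome 5. Of the 7 genes listed between them, picked after the HSP90AA1 values were seen, 4 were tested, and ZNF839 alone passed, in the opposite direction, at 8.59 ± 0.231 FPKM with ANKRD9, against 7.32 ± 0.119 FPKM with the vector (SD, n = 3 each; limma, adjusted p = 0.0115). WDR20, the tested gene next to HSP90AA1, stood at 2.38 ± 0.183 FPKM with ANKRD9, against 2.64 ± 0.198 FPKM with the vector (adjusted p = 0.305).

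The HSP70 genes and their partners divided. HSPA8 encodes the constitutive HSP70 of the cytosol, which also strips clathrin from vesicles, and is gene 395853 on chromosome 24: 3102900-3107842, plus strand. Its level was 921, 904 and 912 FPKM with ANKRD9 and 970.2, 983 and 943 FPKM with the vector. The groups did not overlap, yet the log2 fold change of -0.08 ± 0.04 (95% interval -0.18 to 0.02) did not pass (limma, adjusted p = 0.174). Lying within its span on the same strand are 3 small nucleolar RNA genes, of 91 to 97 bases. HSPA2, another cytosolic HSP70, known in mammals for its part in sperm formation, is gene 423504 on chromosome 5: 53058059-53060378, minus strand. It was at 219, 229 and 227 FPKM with ANKRD9 and at 204, 205 and 194 FPKM with the vector, every ANKRD9 library being the higher. HSPA2 rose 1.12-fold (log2 fold change 0.16 ± 0.04, 95% interval 0.07 to 0.26; limma, adjusted p = 0.0170). That call did not hold without ANKRD9 replicate 2 (adjusted p = 0.0779), without ANKRD9 replicate 3 (0.0540) or without pcDNA3.1 replicate 3 (0.0617).

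HSPH1, the HSP110 protein that releases ADP from HSP70, is gene 418917 on chromosome 1: 176342852-176364944, plus strand. Its level was 14.2, 14.4 and 14.7 FPKM with ANKRD9 and 16.9, 17.4 and 16.5 FPKM with the vector. All ANKRD9 libraries were the lower ones, and HSPH1, whose antisense gene LOC107052088 averaged 0.0251 FPKM with ANKRD9 and 0.0184 FPKM with the empty vector, fell 1.17-fold (log2 fold change -0.21 ± 0.04; limma, adjusted p = 0.00640). DNAJA1, a J-domain protein that stimulates the ATPase of HSP70, is gene 427376 on chromosome Z: 70798137-70805868, plus strand. It stood at 79.4, 80.2 and 78.9 FPKM with ANKRD9 and at 66.9, 66.8 and 64.7 FPKM with the vector. The spread within each group was small beside the gap, and DNAJA1 rose 1.20-fold (log2 fold change 0.26 ± 0.03, 95% interval 0.18 to 0.34; limma, adjusted p = 0.00152).

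Set against HSPA8 in the same library, these partners kept apart. The ratio of HSPA2 to HSPA8 was 0.247 ± 0.00791 with ANKRD9 and 0.208 ± 0.00225 with the vector (SD, n = 3 each). For DNAJA1 the ratio to HSPA8 was 0.0871 ± 0.00138 with ANKRD9 and 0.0685 ± 0.000517 with the vector, and for HSPH1 it was 0.0159 ± 0.000361 with ANKRD9 and 0.0176 ± 0.000147 with the vector. In each of these ratios the groups did not overlap (exact two-sided permutation tests, p = 0.1 each, the smallest possible). HSPA2 and HSPA8 are also close in sequence, so the limit on shared reads applies to them too.

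**Figure D3:**
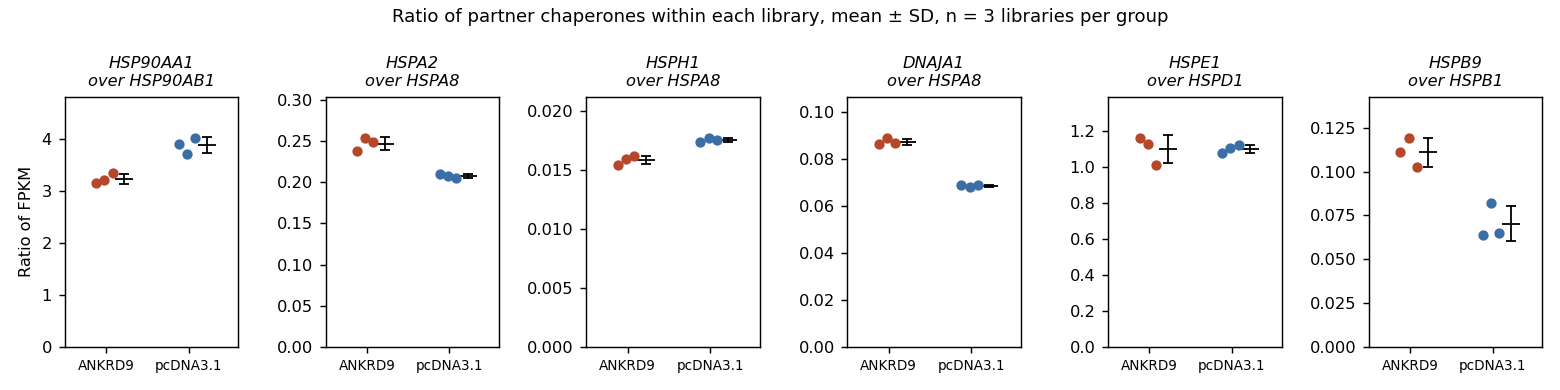
Ratio of FPKM of partner or paralogous chaperones within each library, for the 3 ANKRD9 libraries (red) and the 3 pcDNA3.1 libraries (blue), with group mean and SD as black bars and each axis starting at 0. The groups stand apart in every ratio except HSPE1 over HSPD1, which is near 1.1 in both.

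The mitochondrial chaperonin genes were both lower in every ANKRD9 library, and 1 of them passed the test. HSPD1, which encodes HSP60, the barrel of the folding chamber, is gene 424059 on chromosome 7: 10221920-10231186, minus strand. Its level was 203, 214 and 209.6 FPKM with ANKRD9 and 224, 246 and 244 FPKM with the vector. HSPD1 fell 1.14-fold (log2 fold change -0.19 ± 0.05, 95% interval -0.30 to -0.08; limma, adjusted p = 0.0200). The call was lost under quantile scaling, where the log2 fold change was nearer to 0 (-0.08, adjusted p = 0.163). It was also lost in 5 fits that left out a single library, where the log2 fold change stayed between -0.21 and -0.16, with adjusted p of 0.0727, 0.0512 and 0.0517 without ANKRD9 replicates 1, 2 and 3, and of 0.0535 and 0.0686 without pcDNA3.1 replicates 2 and 3.

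HSPE1, which encodes HSP10, the lid of the same chamber, is gene 395948 on chromosome 7: 10214101-10235996, plus strand. It stood at 235, 241 and 211 FPKM with ANKRD9 and at 241, 272 and 274 FPKM with the vector. The highest ANKRD9 library, at 241.1 FPKM, was just under the lowest pcDNA3.1 library, at 241.3 FPKM. HSPE1 did not pass (log2 fold change -0.19 ± 0.07, 95% interval -0.36 to -0.03; limma, adjusted p = 0.0624), although it did without pcDNA3.1 replicate 1 (adjusted p = 0.0200) and by voom on the recovered reads (adjusted p = 0.0400). The ratio of HSPE1 to HSPD1 was 1.16, 1.13 and 1.01 with ANKRD9 and 1.08, 1.11 and 1.12 with the vector, and the groups overlapped (exact two-sided permutation test, p = 1). In the annotation used, the whole span of HSPD1, 9267 bases, lies inside that of HSPE1 on the other strand. The gene lengths given are shorter than these spans, 2059 bases for HSPD1 and 571 bases for HSPE1. No source used here states whether counting was stranded. Reads may thus be mixed where the counted parts of HSPD1 and HSPE1 overlap, which was not tested.

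The small heat shock proteins differed from each other. HSPB1, which guards actin filaments and is called HSP27 in mammals, is gene 396227 on chromosome 19: 4403293-4405185, minus strand. Its level was 387, 377 and 352 FPKM with ANKRD9 and 362, 375 and 404 FPKM with the vector. The groups overlapped, and the log2 fold change of -0.03 ± 0.06 (95% interval -0.17 to 0.10) did not pass (limma, adjusted p = 0.698). HSPB9, for which NCBI's gene table gives the other name HSP25, is gene 428310 on chromosome 27: 7654562-7655554, plus strand. It stood at 43.0, 44.8 and 36.2 FPKM with ANKRD9 and at 23.1, 30.7 and 26.3 FPKM with the vector, on 458 to 1139 reads. The lowest ANKRD9 library was above the highest pcDNA3.1 library, and HSPB9 rose 1.55-fold (log2 fold change 0.61 ± 0.11, 95% interval 0.35 to 0.88; limma, adjusted p = 0.00547). In size this exceeded the absolute change of 96.7% of all genes tested. The ratio of HSPB9 to HSPB1 was 0.111, 0.119 and 0.103 with ANKRD9 and 0.0639, 0.0820 and 0.0650 with the vector.

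The nearest gene to HSPB9 is LOC772158, described in the table as encoding a heat shock protein 30C-like protein. It was picked after its values were seen. It starts 661 bases away on the other strand (chromosome 27: 7653016-7653900), so that the genes point away from each other. LOC772158 stood at 28.4, 27.0 and 25.2 FPKM with ANKRD9 and at 14.1, 17.1 and 17.7 FPKM with the vector, on 249 to 670 reads. It rose 1.65-fold (log2 fold change 0.69 ± 0.09; limma, adjusted p = 0.00118). Whether reads were shared between the 2 genes was not tested. Among all genes tested, those with profiles nearest to HSPB9 over the 6 libraries were FOXS1, TMEM243 and LRRC71, with root mean square differences of 0.0634, 0.0640 and 0.0711 between centred log2(FPKM + 1) values. FOXS1, a forkhead transcription factor gene, averaged 6.14 ± 0.812 FPKM with ANKRD9, against 3.53 ± 0.665 FPKM with the vector (SD, n = 3 each). As FOXS1 was picked for its likeness to HSPB9 over the same libraries, that difference is no separate result.

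In the wider chaperone network, 8 further lists held 107 genes of the table, of which 99 were tested. Of these, 15 were higher and 13 lower, and 71 did not pass, or 15.2% higher and 13.1% lower beside the 16.3% and 19.8% of all genes tested. When the libraries were scaled by their own read totals, the split was 20 higher and 11 lower, or 20.2% and 11.1%, beside 19.2% and 17.2% of all genes tested under that scaling. The median log2 fold change was 0.00 over these genes, -0.13 over the 10 chaperones and -0.01 over all genes tested.

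**Figure D4:**
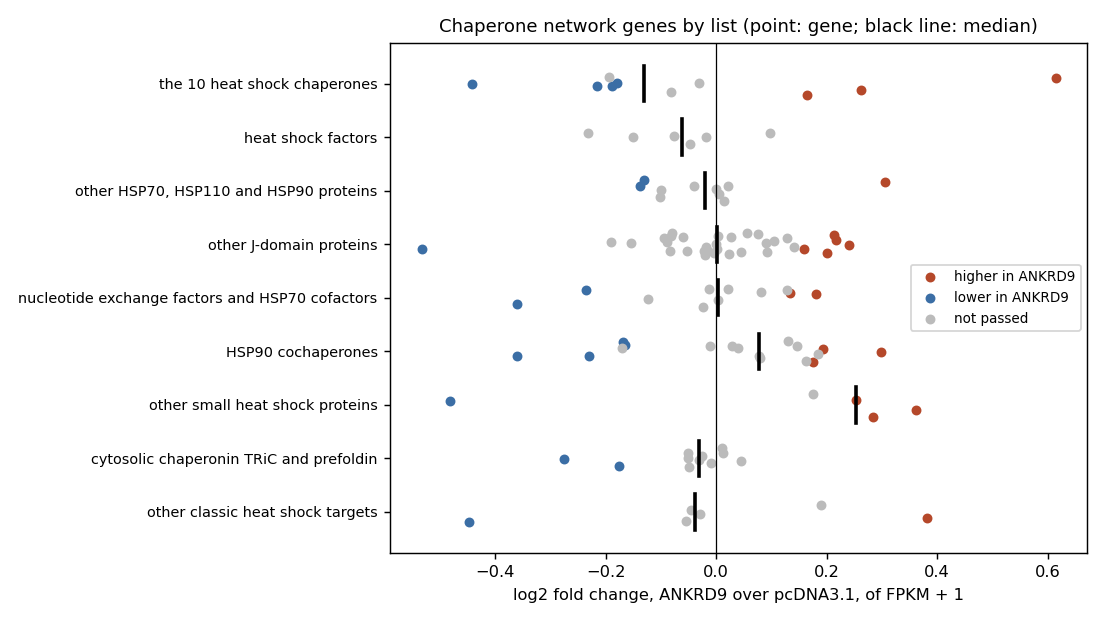
Log2 fold change, ANKRD9 over pcDNA3.1, on the log2(FPKM + 1) scale of the 10 heat shock chaperones and of the tested genes of 8 further chaperone lists, with the median of each list as a black line. Red points were higher and blue points lower at an adjusted p under 0.05 (limma). No gene of the heat shock factor list passed, by limma or by voom. At an unadjusted p under 0.05, whose share of all genes is not given here, 1 of that list was lower.

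The heat shock factors, the transcription factors that act on these genes, gave no call among 6 tested genes of their list (limma; at an unadjusted p under 0.05, 1 was lower and 0 were higher, and none passed by voom). Among all genes tested, 36.0% passed by limma at the adjusted cut, and by voom 21.1% were higher and 19.5% lower. The share at the unadjusted cut is not given here. HSF1, the main factor of the heat response in mammals, stood at 8.89 ± 0.921 FPKM with ANKRD9, against 10.6 ± 1.25 FPKM with the vector (SD, n = 3 each; adjusted p = 0.0953). HSF3, which in chicken shares that role, averaged 16.1 ± 0.319 FPKM with ANKRD9, against 15.0 ± 0.876 FPKM with the vector (adjusted p = 0.175), and passed without pcDNA3.1 replicate 1 (adjusted p = 0.0461). HSF2 averaged 40.2 ± 2.01 FPKM with ANKRD9, against 40.7 ± 0.923 FPKM with the vector (adjusted p = 0.795). HSF4 was near the limit of the filter, at 1.02 ± 0.243 FPKM with ANKRD9, against 1.24 ± 0.327 FPKM with the vector (adjusted p = 0.431). HSBP1, an inhibitor of HSF1, and HSF2BP, a partner of HSF2, had adjusted p of 0.589 and 0.559.

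Among other HSP70 and HSP90 proteins, 1 of 10 was higher and 2 were lower, or 10% and 20%, beside 16.3% and 19.8% of all genes tested. HSPA5, the HSP70 of the endoplasmic reticulum, rose 1.23-fold to 655 ± 12.5 FPKM with ANKRD9, against 531 ± 39.5 FPKM with the vector (SD, n = 3 each; limma, adjusted p = 0.00716). HSPA9 and TRAP1, the mitochondrial HSP70 and HSP90, fell by 0.14 and 0.13 on the log2 scale (adjusted p = 0.0434 and 0.0325), calls that did not hold in several of the alternatives. HSPA14, an HSP70 protein tied to ribosomes, was 1 of the 7 that did not pass (log2 fold change -0.10, adjusted p = 0.110). HSP90B1, another of the 7, was named after its values were seen. It stood at 249 ± 1.95 FPKM with ANKRD9, against 247 ± 8.10 FPKM with the vector (log2 fold change 0.01, adjusted p = 0.799). HSPA9 lost its call without ANKRD9 replicates 1, 2 and 3 (adjusted p = 0.134, 0.0974 and 0.0789) and pcDNA3.1 replicates 1 and 2 (0.0697 and 0.107). For TRAP1 the same 5 omissions gave 0.0874, 0.107, 0.0658, 0.0689 and 0.0791. With all libraries kept, HSPA9 also lost its call without the filter on low values (0.0663), under quantile scaling (0.0552) and with read totals (0.0682). TRAP1 lost its call with read totals (0.0583) and by voom (0.0626). Of 33 other J-domain genes, 5 were higher and 1 lower, or 15.2% and 3.0%, beside the same 16.3% and 19.8%. DNAJB14, DNAJC18 and DNAJB9 rose 1.19-fold, 1.15-fold and 1.18-fold, and DNAJC5, which acts at synaptic vesicles, fell 1.52-fold to 5.64 ± 0.884 FPKM, against 8.59 ± 1.07 FPKM with the vector (adjusted p from 0.00500 to 0.00953). DNAJC5 overlaps TPD52L2 on the same strand.

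HSP70 cofactors gave 2 higher and 2 lower of 11, or 18.2% each, beside 16.3% and 19.8% of all genes tested. BAG2, which blocks the ligase STUB1, fell 1.29-fold to 51.3 ± 2.08 FPKM, against 66.1 ± 3.33 FPKM with the vector (SD, n = 3 each; limma, adjusted p = 0.00197), and ST13, which steadies the ADP state of HSP70, fell 1.18-fold (adjusted p = 0.00915). BAG3, which takes part in the turnover of filamin in muscle, rose 1.14-fold (adjusted p = 0.0396) and STUB1 rose 1.10-fold (adjusted p = 0.0496). BAG3 did not pass on leaving out any 1 library except ANKRD9 replicate 3 (adjusted p between 0.0656 and 0.0979), nor STUB1 on leaving out any except pcDNA3.1 replicate 2 (between 0.0846 and 0.163). With all libraries kept, both also missed the threshold without the filter on low values (0.0782 for BAG3 and 0.0722 for STUB1). STUB1 missed it too with a pseudocount of 0.1 (0.0509) and with the robust prior (0.0503). Of 17 genes for cochaperones of HSP90, 3 were higher and 4 lower, or 17.6% and 23.5%, beside 16.3% and 19.8% of all genes tested. By voom, 7 were higher and 4 lower, where 21.1% of all genes tested were higher and 19.5% lower. Limma gave 7 higher and 5 lower at an unadjusted p under 0.05. The share of all genes at that unadjusted cut is not given here. Ranked by log2 fold change, the middle gene of the 17 stood at 0.08. The 4 named next had the smallest adjusted p and do not stand for the whole list. PPID, CHORDC1 and NUDC fell 1.18-fold, 1.32-fold and 1.13-fold, and CDC37L1 rose 1.16-fold (adjusted p from 0.00391 to 0.0152), the last losing its call without ANKRD9 replicate 2 (adjusted p = 0.0618). On the other strand, ST13 overlaps XPNPEP3, PPID overlaps ETFDH and CDC37L1 overlaps AK3, and their reads may be mixed. UNC45B, the myosin chaperone that works with HSP90 in muscle, was named after its values were seen. It was higher at 13.8 ± 1.15 FPKM with ANKRD9, against 11.1 ± 0.803 FPKM with the vector (adjusted p = 0.0161).

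Of 5 further genes with small heat shock protein names, 3 were higher and 1 lower, or 60% and 20%, beside 16.3% and 19.8% of all genes tested. CRYAB, which binds desmin and titin in muscle, rose 1.20-fold to 58.4 ± 3.39 FPKM, against 48.8 ± 3.00 FPKM with the vector (SD, n = 3 each; limma, adjusted p = 0.0146). HSPB7 and HSPB2, both known from heart and skeletal muscle, rose 1.32-fold and 1.36-fold (adjusted p = 0.0166 and 0.0392). HSPB7 missed the threshold without pcDNA3.1 replicate 3 (adjusted p = 0.0531), and HSPB2 on leaving out any 1 library except ANKRD9 replicate 3 (between 0.0547 and 0.131). With all libraries kept, HSPB2 also missed it without the filter on low values (0.0817) and under quantile scaling (0.0522). HSPB2 stood at only 2.19 ± 0.287 FPKM with ANKRD9, against 1.61 ± 0.106 FPKM with the vector, on 65 to 128 reads. It overlaps CRYAB on the other strand, and their reads may be mixed. HSPB11, which fell 1.47-fold (adjusted p = 0.00390), is also known as IFT25, a protein of ciliary transport. The myoblast markers given above moved in both directions, and their part in the small heat shock protein result was not tested.

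The cytosolic chaperonin TRiC, which folds actin and tubulin, and its helper prefoldin gave 2 lower and 0 higher of 11 (limma, with the same counts at an unadjusted p under 0.05 and by voom). That is 18.2% lower, beside 19.8% of all genes tested, and 0% higher, beside 16.3%. By voom, 19.5% of all genes tested were lower and 21.1% higher, while the share at the unadjusted cut is not given here. PFDN4 fell 1.22-fold (adjusted p = 0.00444) and TCP1 fell 1.13-fold (adjusted p = 0.0139), though TCP1 did not pass without pcDNA3.1 replicate 3 (adjusted p = 0.0520). CCT8 and CCT7 did not pass (adjusted p = 0.399 and 0.416). Of 6 other genes known to answer to heat shock, 1 was lower and 1 higher, or 16.7% each, beside the same 19.8% and 16.3%. SERPINH1, the collagen chaperone HSP47 of the endoplasmic reticulum, fell 1.36-fold to 179 ± 2.56 FPKM, against 244 ± 4.15 FPKM with the vector (SD, n = 3 each; adjusted p = 0.000217). COL1A1, a collagen that it folds and 1 of the fibroblast markers, stood at 340.0, 337 and 363 FPKM with ANKRD9 and at 545, 515 and 509 FPKM with the vector. HMOX1, heme oxygenase, rose 1.30-fold to 208 ± 6.75 FPKM, against 159.5 ± 6.10 FPKM with the vector (adjusted p = 0.000895), while UBB and CLPX did not pass (adjusted p = 0.146 and 0.391). By voom on the recovered reads UBB did pass (adjusted p = 0.0275).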

How the data were processed

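The authors deposited FPKM per gene for 6 libraries, per the file headers, with each gene's position and length. CASAVA and build GRCg6a (galGal6) are named per the submitters' processing notes. For the aligner, the counting program and its strand setting, the processing is not given in the sources used here. In each library 100% of values above 0, times gene length, were whole multiples of 1 step (tolerance 0.01), which gave the read numbers. Such reads are not independent molecules. The median over genes of each library's ratio to the geometric mean was 1, so the FPKM as deposited are already level by that measure, and the totals they imply differ from the sums of reads by -1.08% to 1.45%.

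Each column was matched to a sample by name, and 0 value columns were left without one. The limma package (3.58.1, under R 4.3.3) was fitted to log2(FPKM + 1), group as the sole term, eBayes with a mean trend, over the 11685 genes averaging 1 FPKM or more. Log2 fold changes on that scale understate low genes. Folds are ratios of mean FPKM. Single values were compared with exact permutation tests in scipy 1.17.1. Replicates differed beyond sampling noise (chi-square per degree of freedom 2.60 to 7.81 within groups). The procedure was also run on simulated data, whose smallest fold was above that of every chaperone here but HSPB9. That run gives no measure for changes as small as these.

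The chaperones and lists were chosen with earlier results of these data known. The genes named are the 10, ANKRD9, the heat shock factors, the 4 of smallest adjusted p in each other list, and the 3 nearest in profile to the gene of largest change, besides the cell type markers and the genes that overlap or adjoin a named gene. Others are said to be picked later. Chromosome names come from gene identifiers shared with NCBI's table for GRCg7b, whose coordinates were not used. Promoter and protein sequences were not analysed here. Alternatives changed the pseudocount, filter, scaling, prior, libraries, replicate block and model.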

Additional observations from a re-analysis of the deposited data

How the results depend on the processing

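Results were recomputed under 16 alternatives, of which voom on the recovered reads and scaling by read totals were chosen after seeing the data. Median-of-ratios scaling returned the deposited values. The number of chaperones that fell ranged from 3 to 5 and the number that rose from 2 to 3. Over all genes tested, the share lower ranged from 9.0% to 22.9% and the share higher from 8.0% to 21.1%. Both were least without the filter on low values. HSP90AA1, HSP90AB1, HSPH1, DNAJA1 and HSPB9 kept their direction and passed in all 16, with highest adjusted p of 0.00555, 0.0399, 0.0319, 0.0131 and 0.0240 (limma). The log2 fold change of ANKRD9 ranged from 3.21 to 3.44. Among the 8 further lists, the 15 higher genes became 7 with the replicate block, 23 by voom and between 8 and 15 when a library was left out, while the higher genes of the whole table went from 1900 to 1420, 2470 and between 1255 and 1764. Values near 0 that did not pass changed sign: HSPB1 stood at 0.012 under quantile scaling and between -0.067 and 0.013 when a library was left out (above 0 without ANKRD9 replicate 3 or pcDNA3.1 replicate 3), HSF2 at 0.0072 with read totals, 0.0092 by voom and between -0.056 and 0.012 when a library was left out (above 0 without ANKRD9 replicate 2), and HSBP1 between -0.11 and 0.017 (above 0 without pcDNA3.1 replicate 2). The cause of these sign changes was not tested. Those under quantile scaling, with read totals and by voom came with all 6 libraries kept.

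No pairing by replicate number was seen, though so few libraries cannot exclude one. Deviations of same-numbered libraries correlated between -0.20 and 0.03, and those of other-numbered libraries between -0.10 and 0.16. With the replicate block, which spends degrees of freedom, 2 chaperones rose and 4 fell, where 12.2% of all genes tested were higher and 14.5% lower. In that fit HSPA2 did not pass (limma, adjusted p = 0.0613), nor did CRYAB (0.0518), TCP1 (0.0539), CDC37L1 (0.0574), HSPB2 (0.0612), STUB1 (0.0740), HSPA9 (0.0906), TRAP1 (0.0920) or BAG3 (0.0970). Planned negative binomial count tests on the recovered reads were not run. HSPB9, on as few as 458 reads, had the widest interval of the 10.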
